A study of Mus musculus with 30 samples.

Results

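The 10 genes described here carry salt, potassium, magnesium and calcium transport in the distal nephron of the kidney, or mark the cells that do. They were chosen by name for their place in the nephron, by a rule that uses no measured value, but with earlier results of these data known: *Umod*, *Slc12a1* and *Kcnj1* for the thick ascending limb, *Slc12a3*, *Pvalb*, *Calb1* and *Trpm6* for the distal convoluted tubule, and *Scnn1a*, *Scnn1b* and *Scnn1g* for the subunits of the epithelial sodium channel (ENaC). Each matched 1 transcript cluster of the array, so that all 10 were measured among the 22139 genes tested, and none was lost to a filter on low values.

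The kidneys came from 30 male C57BL/6 mice aged 9 to 11 weeks, with 5 mice in each of 6 groups. *Trp53(+/+)* mice had both functional copies of the gene for p53, *Trp53(+/-)* mice had 1, and *Trp53(-/-)* mice had none; a lost copy holds a neomycin cassette in place of part of the gene. In each genotype, one group received aristolochic acid I (AAI), a nephrotoxin of Aristolochia plants, as a daily injection into the peritoneum of 3.5 mg/kg bw over 6 days, and the control group received water by the same route. All mice were killed 24 h after the last injection, and total RNA from a portion of each kidney, of a region the labels do not give, was hybridised to a Clariom S mouse array. Since whole tissue was extracted, fewer cells of a type and less RNA per cell cannot be told apart in any value below.

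In the loop of Henle, the thick ascending limb takes up sodium, potassium and chloride without water, and the potassium that is recycled into the lumen drives calcium and magnesium through the junctions between its cells. The distal convoluted tubule follows, where a thiazide-sensitive cotransporter takes up sodium chloride and where the reabsorption of magnesium and calcium is set. Further on, in the connecting tubule and the collecting duct, ENaC takes up the last of the sodium under the control of aldosterone. AAI is known to injure above all the proximal tubule, which lies upstream of these segments.

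Values are log2 signals, on which 1 unit stands for a 2-fold change. The probes of different genes differ in brightness, and signals are therefore compared between kidneys and not between genes. The fit with limma shared 1 estimate of the spread over the 30 arrays, and a gene was called changed where its p-value, adjusted over all genes of the contrast, was under 0.05. The arrays were alike in quality, with median signals of 5.88 to 5.99 and mean correlations within the group of 0.978 to 0.987. cDNA was made in batches of 14 and 16 samples. Batch 1 held the AAI group of *Trp53(+/-)* and batch 2 its controls, so that batch and AAI cannot be told apart in this genotype. Both *Trp53(-/-)* groups were in batch 2. The *Trp53(+/+)* kidneys were in batch 1 except for 1 AAI kidney, and which one is not labelled.

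AAI moved the distal genes in different directions. *Pvalb* fell in *Trp53(+/+)* and *Trp53(-/-)* kidneys. It was lower with AAI in *Trp53(+/-)* kidneys too, where batch and AAI cannot be told apart and its call did not hold with a batch term. *Umod* and the ENaC subunit genes *Scnn1b* and *Scnn1g* rose in *Trp53(+/+)* and *Trp53(-/-)* kidneys. The transporter and channel genes *Slc12a1*, *Kcnj1*, *Slc12a3* and *Trpm6* did not pass the test in any genotype. In *Trp53(+/+)* kidneys, 4 of the 10 genes were called (3 higher, 1 lower), against 27.3% of all genes tested (15.2% higher, 12% lower). In *Trp53(+/-)* kidneys 2 of 10 were called (1 higher, 1 lower), against 7.34% (3.53% and 3.81%), and in *Trp53(-/-)* kidneys 5 of 10 (4 higher, 1 lower), against 26.4% (15.5% and 10.9%). A change of at least 2-fold was called for 1 of 10, *Pvalb*, in *Trp53(+/+)* (6.04% of all genes) and in *Trp53(-/-)* kidneys (6.16%), and for 0 of 10 in *Trp53(+/-)* kidneys (1.49%). The median log2 change of the 10 genes was -0.07, 0.02 and 0.28 in the order (+/+), (+/-) and (-/-), where the median of all genes was -0.03, 0 and -0.01. Of all genes called, 55.8%, 48.1% and 58.6% were higher with AAI, a share that became 44.8%, 37.9% and 49.2% with each array centred on its median.

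**Figure D1:**
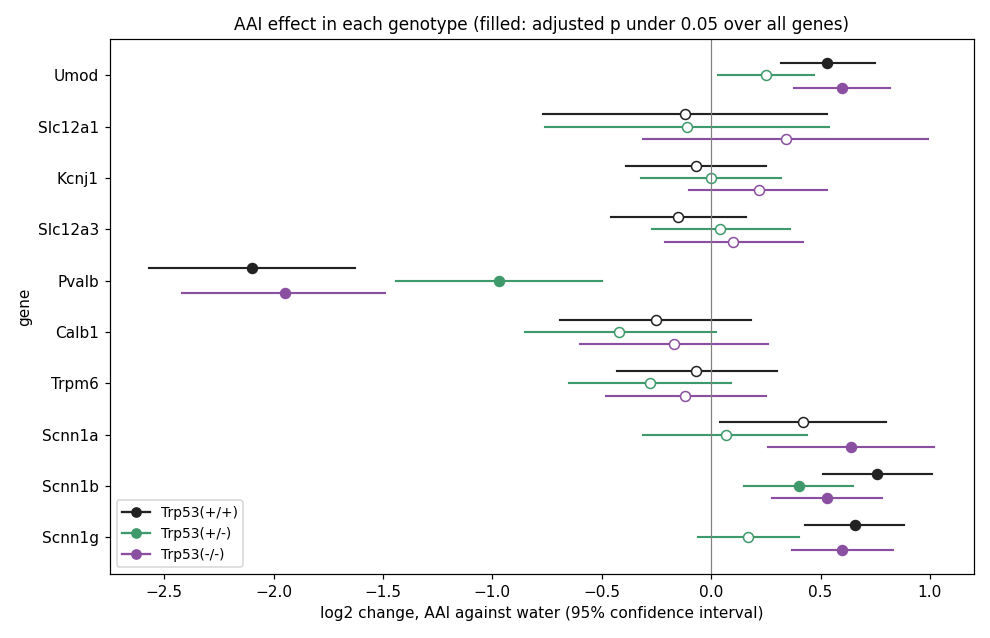
Log2 change of each gene, AAI against water, with the 95% confidence interval of the fit (x axis), in each genotype (n = 5 mice per group). Filled points have an adjusted p under 0.05 over all genes; *Pvalb* lies at -2.10, -0.97 and -1.95, while every other change lies between -0.42 and 0.76.

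*Pvalb* encodes parvalbumin, a cytosolic calcium-binding protein that in the mouse kidney marks the early distal convoluted tubule. In *Trp53(+/+)* controls its log2 signals were 8.68, 7.80, 8.12, 8.45 and 8.31, and in *Trp53(+/+)* AAI kidneys 5.88, 6.14, 6.49, 6.49 and 5.85. Every AAI kidney thus lay below every control, by more than 1 log2 unit at the closest pair. The change was -2.10 ± 0.23 (SE; 4.28-fold lower, adjusted p = 1e-08). In *Trp53(-/-)* kidneys the controls had 7.50, 8.11, 7.94, 7.70 and 7.80 and the AAI kidneys 5.59, 5.90, 5.54, 5.83 and 6.43. The groups were again apart, and the change was -1.95 ± 0.23 (3.87-fold lower, adjusted p = 4.1e-08). Over all genes, 8.11% had every *Trp53(+/+)* AAI array below every control and 7.63% did so in *Trp53(-/-)*.

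In *Trp53(+/-)* kidneys the signals of *Pvalb* overlapped. None of the 10 genes had groups apart in this genotype, where 4.26% of all genes had every AAI array below and 4.09% above the controls. The controls had 8.21, 7.37, 7.45, 7.85 and 7.99, and the AAI kidneys 6.52, 6.57, 7.80, 6.08 and 7.05. A single AAI kidney, replicate 3, was within the range of the controls, and the other 4 were below it. The change was -0.97 ± 0.23 (1.96-fold lower, adjusted p = 0.00538), and without replicate 3 of the AAI kidneys it was -1.22. A term for the cDNA batch, which rests on 1 array, left values of -1.37 to -0.57 with no call over the 5 possible assignments. A comparison with the wild-type controls, which share batch 1 with these AAI kidneys, gave -1.46 ± 0.23 (adjusted p = 1.27e-05 by limma). The groups of that comparison differ in genotype as well, so that genotype and AAI cannot be told apart in it. The fall of *Pvalb* in *Trp53(+/-)* kidneys was smaller than that in *Trp53(+/+)* kidneys by 1.13 ± 0.32 on the log2 scale (95% confidence interval 0.47 to 1.79), but this difference did not pass the threshold (adjusted p = 0.0658 by limma). Between *Trp53(-/-)* and *Trp53(+/+)* kidneys the fall differed by 0.15 (-0.51 to 0.81, adjusted p = 0.953).

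The bases just before the start of *Pvalb* are printed because it was the gene with the largest change among the 10. They are 250 bases upstream of its outermost start on the minus strand, at chr15:78206401-78206650 of GRCm38.p6, from RefSeq, 5′ to 3′ in the direction of the gene. G and C make up 58.4% of them, against a median of 52.4% over all promoters of the RefSeq table.
Pvalb: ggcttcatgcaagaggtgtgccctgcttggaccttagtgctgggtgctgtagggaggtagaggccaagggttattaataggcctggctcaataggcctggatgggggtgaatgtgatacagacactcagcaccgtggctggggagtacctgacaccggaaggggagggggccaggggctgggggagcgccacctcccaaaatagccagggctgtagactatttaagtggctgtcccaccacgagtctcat

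Of the other members of the distal convoluted tubule, none passed the test of AAI against water in any genotype. *Slc12a3* encodes the thiazide-sensitive sodium chloride cotransporter, the defining transporter of this segment. Its signals in *Trp53(+/+)* kidneys were 10.18, 10.07, 10.24, 10.13 and 10.31 in controls and 10.24, 10.29, 10.18, 9.71 and 9.75 with AAI. Of these AAI kidneys 3 were within the control range and 2 were below it. The changes were -0.15 (95% confidence interval -0.46 to 0.16), 0.04 (-0.27 to 0.36) and 0.10 (-0.21 to 0.42) in the order (+/+), (+/-) and (-/-), with adjusted p of 0.522, 0.997 and 0.693. A change of 2-fold in either direction was outside all of these intervals.

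*Calb1* encodes calbindin-D28k, which buffers and carries calcium in the late distal convoluted and connecting tubule. Its changes were -0.25 (-0.69 to 0.18), -0.42 (-0.85 to 0.02) and -0.17 (-0.60 to 0.26), and none passed the test (adjusted p = 0.425, 0.351 and 0.63). In *Trp53(+/+)* kidneys the signals of *Calb1* ran from 9.49 to 9.79 with AAI and from 9.76 to 10.02 in controls. In *Trp53(+/-)* AAI kidneys it split into 3 kidneys at 8.65, 8.75 and 8.91 and 2 at 9.57 and 9.78, with the controls at 9.09 to 9.76. Against the wild-type controls of batch 1, at 9.76 to 10.02, these AAI kidneys differed by -0.74 ± 0.21 (adjusted p = 0.0109 by limma). Genotype and AAI cannot be told apart in that difference. *Trpm6* encodes the magnesium channel of the distal convoluted tubule, in which loss of function causes low blood magnesium in humans. Its changes were -0.07 (-0.43 to 0.30), -0.28 (-0.65 to 0.09) and -0.12 (-0.48 to 0.25), with adjusted p of 0.833, 0.566 and 0.71, and its signals lay between 5.26 and 6.78 over all kidneys.

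The difference between the signals of a pair of genes within an array is not moved by a shift of the whole array. Over 10 pairs of members and 3 genotypes, 30 exact permutation tests were made (two-sided, smallest p of 0.00794 for 5 against 5). *Pvalb* minus *Slc12a3* moved by -1.95, -1.01 and -2.06 in the same order (exact p = 0.00794, 0.0238 and 0.00794; adjusted over the 30 tests 0.0595, 0.143 and 0.0595). *Calb1* minus *Pvalb* moved by 1.85, 0.55 and 1.78 (exact p = 0.00794, 0.0317 and 0.00794; adjusted 0.0595, 0.159 and 0.0595). In *Trp53(+/+)* and *Trp53(-/-)* kidneys both differences separated every AAI kidney from every control. No pair passed the adjusted threshold, for which 4 tests at the smallest possible p are not enough over 30. *Calb1* minus *Slc12a3* moved by -0.10, -0.46 and -0.27, and *Trpm6* minus *Slc12a3* by 0.08, -0.32 and -0.22 (adjusted p of 0.159 or above). Thus, within the segment, the difference between *Pvalb* and its neighbours was several times that among *Slc12a3*, *Calb1* and *Trpm6* in *Trp53(+/+)* and *Trp53(-/-)* kidneys.

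**Figure D2:**
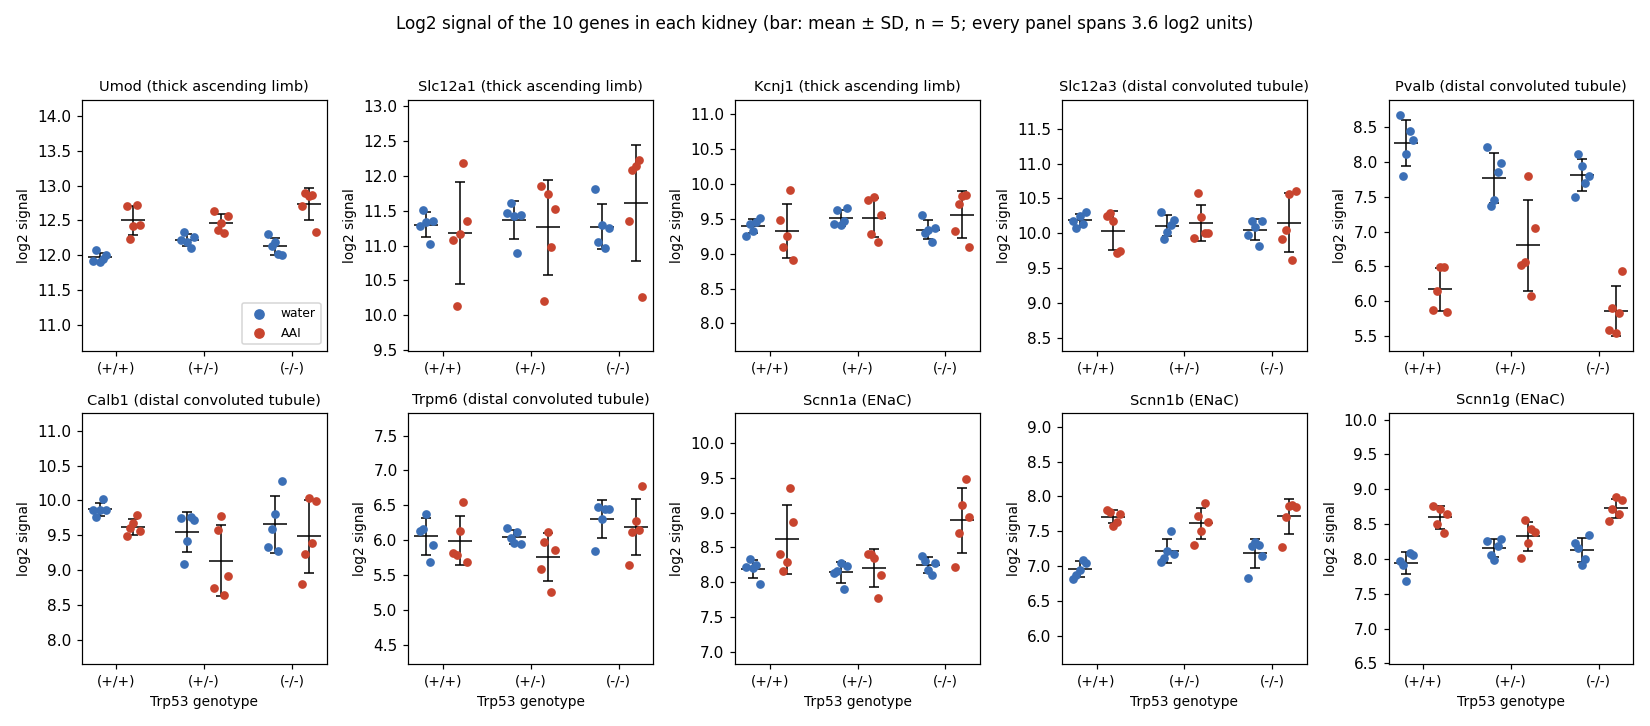
Log2 signal (y axis) of the 10 genes in each of the 30 kidneys, by genotype (x axis) and treatment (blue, water; red, AAI), with the mean and SD of 5 kidneys. *Pvalb* is below its controls in every *Trp53(+/+)* and *Trp53(-/-)* AAI kidney, and *Slc12a1* spreads from 10.14 to 12.23 over the AAI kidneys against 10.89 to 11.81 over the controls.

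In the thick ascending limb, *Umod* rose in *Trp53(+/+)* and *Trp53(-/-)* kidneys, but its change was not shown to differ from that of *Slc12a1* (*Umod* minus *Slc12a1* moved by 0.65, 0.36 and 0.26 in the order (+/+), (+/-) and (-/-), adjusted p of the exact test 0.159, 0.527 and 0.78). *Umod* encodes uromodulin, the most abundant protein of normal urine, which the cells of the thick limb make and shed. Its signals in *Trp53(+/+)* kidneys were 11.92, 12.07, 11.91, 11.94 and 12.01 in controls and 12.71, 12.23, 12.42, 12.72 and 12.44 with AAI, with no overlap. The change was 0.53 ± 0.11 (1.45-fold higher, adjusted p = 2e-04). In *Trp53(-/-)* kidneys it went from 12.30, 12.14, 12.19, 12.02 and 12.01 to 12.71, 12.90, 12.85, 12.86 and 12.34, again without overlap, which is a change of 0.60 ± 0.11 (1.52-fold higher, adjusted p = 4.04e-05). Every AAI array lay above every control for 9.71% of all genes in *Trp53(+/+)* and for 10.5% in *Trp53(-/-)* kidneys. In *Trp53(+/-)* kidneys, with 12.22, 12.33, 12.19, 12.10 and 12.26 in controls and 12.63, 12.37, 12.47, 12.32 and 12.56 with AAI, the change of 0.25 ± 0.11 did not pass the test (adjusted p = 0.198). The lowest of these AAI kidneys was just below the highest control, and the other 4 AAI kidneys were above it. The difference of the effects of *Umod* between *Trp53(-/-)* and *Trp53(+/-)* kidneys was 0.35 (0.04 to 0.66, adjusted p = 0.294).

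Promoter sequences of 8 of the 10 genes were found in the RefSeq table of mouse promoters (GRCm38.p6), and 250 bases before each start were searched on both strands for 4 motifs. These were the HNF1 half-site GTTAAT (in 6.43% of the 32851 promoters of the table), the steroid receptor half-site AGAACA (16.1%), the TATA box TATAAA (12.4%) and the p53 half-site of its usual consensus (7.13%). *Umod* held GTTAAT once, beginning 202 bases before the start. HNF1 factors are known as activators of *Umod*, and the sequence is printed with this match in capitals, at chr7:119479263-119479512 on the minus strand. Of the others, *Kcnj1* held AGAACA at 2 places and *Slc12a3* held TATAAA 32 bases before the start, while *Slc12a1*, *Pvalb*, *Trpm6*, *Scnn1b* and *Scnn1g* held none of the 4. The p53 half-site was found in none of the 8. The 250 bases lay wholly within the gene model of RefSeq for *Kcnj1*, *Trpm6* and an inner start of *Pvalb*. For *Slc12a3*, *Slc12a1* and *Scnn1g* the 99, 90 and 59 bases nearest the start did so. The matches of *Kcnj1* and *Slc12a3* are thus within the gene model. These matches describe the letters in the window and no more.
Umod: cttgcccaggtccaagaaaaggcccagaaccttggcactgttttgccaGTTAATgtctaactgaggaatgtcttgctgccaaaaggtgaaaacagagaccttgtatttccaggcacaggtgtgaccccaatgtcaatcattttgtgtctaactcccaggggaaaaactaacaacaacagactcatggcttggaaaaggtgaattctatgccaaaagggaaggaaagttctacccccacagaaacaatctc

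*Slc12a1* encodes the furosemide-sensitive sodium, potassium and chloride cotransporter of the thick limb, and *Kcnj1* the potassium channel ROMK, which returns potassium to its lumen and also secretes it in the collecting duct. The signals of *Slc12a1* were 11.28, 11.51, 11.34, 11.02 and 11.36 in *Trp53(+/+)* controls and 11.08, 10.14, 11.17, 12.18 and 11.35 with AAI. In *Trp53(-/-)* kidneys they were 11.81, 11.05, 11.29, 10.97 and 11.25 in controls and 11.36, 12.08, 12.14, 12.23 and 10.26 with AAI. AAI kidneys thus lay on both sides of their controls, the lowest about 2 log2 units below the highest of its own group. The changes were -0.12 (-0.77 to 0.53), -0.11 (-0.76 to 0.54) and 0.34 (-0.31 to 0.99), with adjusted p of 0.832, 0.996 and 0.492. For *Kcnj1* they were -0.07 (-0.39 to 0.25), 0 (-0.32 to 0.32) and 0.22 (-0.10 to 0.53), with adjusted p of 0.791, 1 and 0.346.

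The spread of *Slc12a1* and *Kcnj1* between kidneys was wider with AAI. The SD of *Slc12a1* within a group was 0.73, 0.68 and 0.832 in the AAI groups of (+/+), (+/-) and (-/-) mice and 0.18, 0.275 and 0.329 in their controls. Pooled over the genotypes, the ratio of the SD with AAI to that with water was 2.80 for *Slc12a1*, 2.84 for *Kcnj1*, 3.29 for *Scnn1a*, 2.45 for *Slc12a3* and 2.04 for *Umod*. The median of this ratio over all genes was 0.98, and the 5 genes stood at percentiles 97.1 to 99.7 of it. *Scnn1b* and *Scnn1g*, which rose, had ratios of 1.18 and 1.12. These ratios are given as a description, with no test.

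The kidneys that were high in one thick limb gene were high in the others. For this the deviation of each kidney from the mean of its own group was used. This removes the differences between group means, but not those in spread between AAI and control groups. In this way 45 relations between the 10 genes were computed over the 30 kidneys, with p from 100000 permutations within groups. *Umod* and *Slc12a1* deviated together, with a Pearson r of 0.84 (permutation p = 4e-05, adjusted over 45 relations 9e-04) and a Spearman rho of 0.79 (p = 3e-05, adjusted 0.000675). The r was 0.86 in the 15 AAI kidneys, 0.80 in the 15 controls, and 0.73 without the 2 kidneys farthest from the median in *Umod*. *Umod* and *Kcnj1* had an r of 0.81 (permutation p = 1e-05, the smallest that these permutations can give, adjusted 0.00045) and a rho of 0.82 (p = 1e-05, adjusted 0.00045), with 0.84 in AAI kidneys, 0.72 in controls and 0.78 without the 2 farthest. *Slc12a1* and *Kcnj1* had 0.78 (permutation p = 0.00027, adjusted 0.00405) and a rho of 0.75 (p = 0.00032, adjusted 0.0048), with 0.81 in AAI kidneys, 0.56 in controls and 0.74 without the 2 farthest. Within the groups that lie wholly in batch 1 (10 kidneys) and in batch 2 (15 kidneys) the r of these pairs was 0.73 and 0.94 (*Umod* and *Slc12a1*), 0.79 and 0.87 (*Umod* and *Kcnj1*), and 0.74 and 0.91 (*Slc12a1* and *Kcnj1*).

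**Figure D3:**
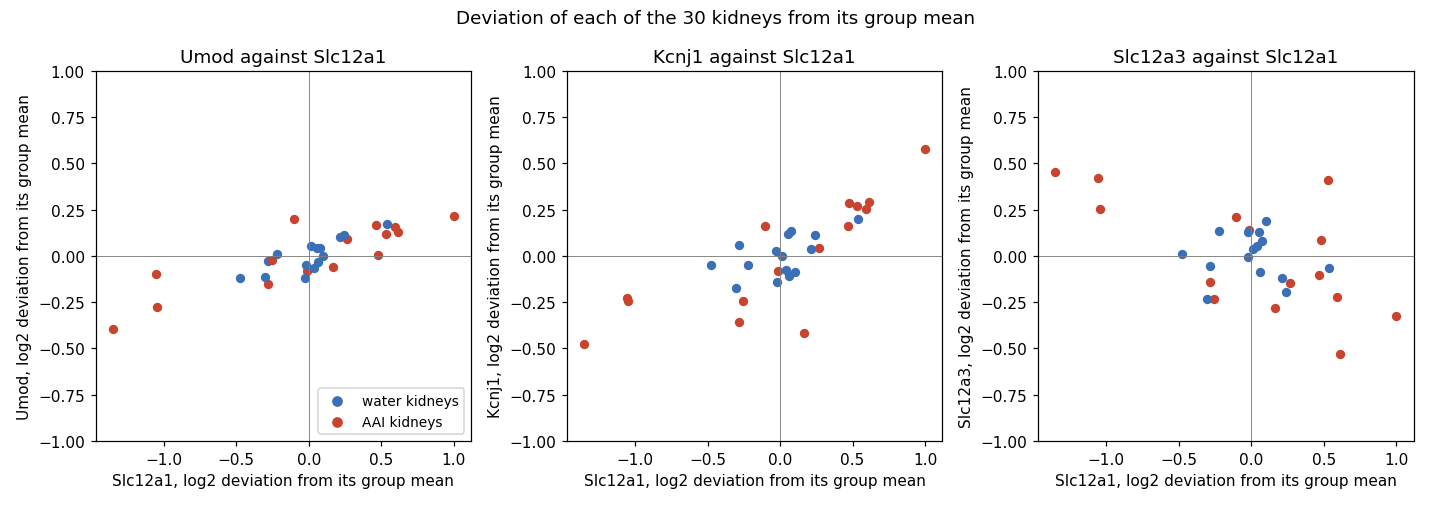
Deviation of each kidney from the mean of its group on the log2 scale, *Slc12a1* on the x axis and *Umod*, *Kcnj1* or *Slc12a3* on the y axis (30 kidneys; blue, water; red, AAI). *Umod* and *Kcnj1* rise with *Slc12a1* (r = 0.84 and 0.78), whereas the r of *Slc12a3* is -0.57 and is -0.36 without the 2 farthest kidneys.

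Of the 6 pairs among the genes of the distal convoluted tubule, 4 varied together, while *Slc12a3* did not pass with *Pvalb* (r = 0.26, rho = 0.31, permutation p = 0.235 and 0.134, adjusted 0.447 and 0.382; 0.18 without the 2 farthest kidneys) or with *Trpm6* (r = 0.32, rho = 0.32, permutation p = 0.201 and 0.142, adjusted 0.424 and 0.382; 0.22 without the 2 farthest). *Slc12a3* and *Calb1* had an r of 0.63 (permutation p = 0.00328, adjusted 0.0246) and a rho of 0.63 (p = 0.00118, adjusted 0.0133), with 0.62 in AAI kidneys, 0.72 in controls and 0.64 without the 2 farthest. *Calb1* and *Trpm6* had 0.61 (permutation p = 0.00183, adjusted 0.0206) and a rho of 0.56 (p = 0.00352, adjusted 0.0277), and *Pvalb* and *Trpm6* 0.59 (permutation p = 0.00247, adjusted 0.0222) and a rho of 0.52 (p = 0.00707, adjusted 0.0398). In these last pairs the r was 0.80 and 0.77 in AAI kidneys and 0.18 and 0.13 in controls, a difference that was not tested, and without the 2 farthest kidneys it was 0.50 and 0.48. *Pvalb* and *Calb1*, at 0.56 with a rho of 0.56, and *Slc12a3* and *Scnn1g*, at 0.54 with a rho of 0.56, were the other relations that passed (permutation p = 0.00764 and 0.00417 for r, adjusted 0.043 and 0.0268; 0.00431 and 0.00388 for rho, adjusted 0.0277 for both). Without the 2 farthest kidneys they had 0.40 and 0.55. Within batches 1 and 2 the r was 0.74 and 0.75 for *Slc12a3* with *Calb1*, 0.61 and 0.66 for *Calb1* with *Trpm6*, 0.49 and 0.64 for *Pvalb* with *Trpm6*, 0.67 and 0.50 for *Pvalb* with *Calb1*, and 0.47 and 0.64 for *Slc12a3* with *Scnn1g*. Between the cotransporters *Slc12a1* and *Slc12a3* the r was -0.57 and the rho -0.44, which did not pass after adjustment (permutation p = 0.0207 and 0.0477, adjusted 0.103 and 0.179), with -0.68 and -0.42 in batches 1 and 2. The r of these cotransporters was -0.64 in the AAI kidneys, -0.07 in the controls and -0.36 without the 2 farthest kidneys. In the 3 AAI kidneys with the lowest *Slc12a1*, one in each genotype at 10.14, 10.21 and 10.26, *Slc12a3* was the highest of its group, at 10.29, 10.57 and 10.61. These kidneys were picked by their values and enter the same r, so that they describe it and add no support.

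ENaC is built from α, β and γ subunits, encoded by *Scnn1a*, *Scnn1b* and *Scnn1g*, and passes sodium through the apical membrane of principal cells. *Scnn1b* and *Scnn1g* lie on the same strand of chromosome 7. In *Trp53(+/+)* kidneys *Scnn1b* went from 6.82, 6.87, 6.95, 7.09 and 7.05 in controls to 7.80, 7.78, 7.58, 7.64 and 7.75 with AAI. *Scnn1g* went from 7.97, 7.91, 7.69, 8.08 and 8.06 to 8.76, 8.50, 8.72, 8.37 and 8.64. Neither gene had an AAI kidney within the control range. The changes were 0.76 ± 0.12 for *Scnn1b* (1.69-fold higher, adjusted p = 1.09e-05) and 0.66 ± 0.11 for *Scnn1g* (1.57-fold higher, adjusted p = 2.21e-05).

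The rise of both subunit genes was called in *Trp53(-/-)* kidneys as well. *Scnn1b* went from 6.83, 7.29, 7.35, 7.30 and 7.15 to 7.28, 7.70, 7.86, 7.88 and 7.85, where only AAI replicate 1, at 7.28, was within the control range. *Scnn1g* went from 8.23, 8.16, 7.91, 8.0 and 8.34 to 8.55, 8.71, 8.89, 8.65 and 8.84, with no overlap. The changes were 0.53 ± 0.12 (1.44-fold, adjusted p = 0.00115) and 0.60 ± 0.11 (1.52-fold, adjusted p = 7.59e-05). In *Trp53(+/-)* kidneys *Scnn1b* was at 7.06, 7.12, 7.22, 7.51 and 7.17 in controls and at 7.30, 7.72, 7.51, 7.90 and 7.64 with AAI. Of these AAI kidneys 3 were above all controls. The change of 0.40 ± 0.12 passed narrowly (1.32-fold, adjusted p = 0.0406) and lost its call when any 1 of 7 kidneys was left out (adjusted p up to 0.16). With a batch term its value was 0.24 to 0.51 over the 5 assignments, with a median of 0.45, and it was not called. For *Scnn1g* the change was 0.17 ± 0.11 (adjusted p = 0.586). Compared with wild-type controls from batch 1, these AAI kidneys were higher by 0.66 ± 0.12 in *Scnn1b* and by 0.38 ± 0.11 in *Scnn1g* (adjusted p = 0.000138 and 0.0116 by limma). Genotype and AAI cannot be told apart in that comparison.

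Sequences before the starts of *Scnn1b* and *Scnn1g* are printed because both genes rose. That of *Scnn1b* is at chr7:121864788-121865037 and that of *Scnn1g* at chr7:121734229-121734419, both on the plus strand of GRCm38.p6. The latter ends where the gene model of RefSeq begins and has 191 bases. Over the full 250 bases before the start, which for *Scnn1g* include 59 within the gene model that are not printed, G and C made up 60.8% in *Scnn1b* and 65.2% in *Scnn1g*, against a median of 52.4% over all promoters.
Scnn1b: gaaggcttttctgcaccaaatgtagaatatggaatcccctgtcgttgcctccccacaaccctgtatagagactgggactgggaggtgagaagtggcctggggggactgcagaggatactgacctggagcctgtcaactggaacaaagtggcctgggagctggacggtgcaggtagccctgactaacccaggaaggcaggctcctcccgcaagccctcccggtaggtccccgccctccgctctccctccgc
Scnn1g: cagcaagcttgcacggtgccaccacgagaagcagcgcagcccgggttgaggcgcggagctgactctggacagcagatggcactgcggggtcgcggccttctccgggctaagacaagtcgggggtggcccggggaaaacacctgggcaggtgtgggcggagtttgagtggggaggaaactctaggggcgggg

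*Scnn1a*, the gene of the α subunit, was less regular. Its signals were 8.22, 8.33, 8.20, 8.25 and 7.98 in *Trp53(+/+)* controls and 8.40, 8.16, 8.29, 9.36 and 8.87 with AAI. In this genotype 2 AAI kidneys were far above the controls and 3 were near them, and the change of 0.42 ± 0.19 did not pass (adjusted p = 0.0954). The value rested on few kidneys, with 0.23 (adjusted p = 0.351) without AAI replicate 4, the highest, and 0.53 (adjusted p = 0.0354) without AAI replicate 2, the lowest. In *Trp53(-/-)* kidneys the signals were 8.38, 8.31, 8.18, 8.10 and 8.27 in controls and 8.22, 8.71, 9.11, 9.48 and 8.93 with AAI. AAI replicate 1 was within the control range and the other 4 were above it, and the change was 0.64 ± 0.19 (1.56-fold higher, adjusted p = 0.00865). In *Trp53(+/-)* kidneys the change was 0.07 ± 0.19 (adjusted p = 0.994). Differences between the subunits within the array moved by -0.23 to 0.34 over the 3 pairs and 3 genotypes, with adjusted p of 0.238 or above in the exact tests.

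Genotype was compared in 3 ways. In the water controls none of the 10 genes was called between any genotypes, where 0.235%, 0.641% and 0% of all genes did for (+/-) against (+/+), (-/-) against (+/+) and (-/-) against (+/-). For 1 of 10, *Umod*, every *Trp53(+/-)* control lay above every *Trp53(+/+)* control, as for 1.61% of all genes, and the difference was 0.25 (95% confidence interval 0.03 to 0.47, unadjusted p = 0.0252 and adjusted p = 0.368 by limma), which is as large as its AAI change in *Trp53(+/-)* kidneys. These controls were made in different cDNA batches. No difference of the AAI effect between genotypes was called for any of the 10 genes (1.84% of all genes for (+/-) minus (+/+), 0.104% for (-/-) minus (+/+), 2.58% for (-/-) minus (+/-)). By limma, the lowest adjusted p among them was the 0.0658 of *Pvalb*. The unadjusted p of *Pvalb*, *Scnn1g*, *Scnn1b*, *Umod* and *Scnn1a* was under 0.05 in at least 1 of these contrasts, each of which set *Trp53(+/-)* against another genotype. The AAI and water groups of *Trp53(+/-)* mice were in different cDNA batches, so that batch and genotype cannot be told apart in these contrasts. With a batch term, the difference of *Pvalb* between *Trp53(+/-)* and *Trp53(+/+)* was 0.65 to 1.61 over the 5 assignments and was not called. Among the AAI kidneys, 3 of 10 genes differed between *Trp53(-/-)* and *Trp53(+/-)* mice, against 10.4% of all genes (5.53% higher, 4.85% lower). *Pvalb* was lower in *Trp53(-/-)* by 0.95 ± 0.23 (log2 difference of -0.95, adjusted p = 0.00488), while *Scnn1a* was higher by 0.68 ± 0.19 (adjusted p = 0.0134) and *Scnn1g* by 0.41 ± 0.11 (adjusted p = 0.0141). These groups were made in different cDNA batches, so that batch and genotype cannot be told apart here. With a batch term, 0 of the 3 calls held under 4 of the 5 assignments and 1, *Scnn1a*, under the other. None of the 10 genes differed between *Trp53(+/-)* and *Trp53(+/+)* (1.54% of all genes) or between *Trp53(-/-)* and *Trp53(+/+)* AAI kidneys (3.1%).

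Since the order comes from the same means, a step between neighbouring groups is among the smallest differences, and the steps describe the order only. Of the 50 steps between neighbours in the order of the 6 groups, 2 passed the test, each over all genes of its contrast. These were the step of *Pvalb* from *Trp53(+/-)* AAI (6.81 ± 0.655, SD, n = 5) to *Trp53(+/-)* water kidneys (7.78 ± 0.355), by 0.97, and the step of *Scnn1b* from *Trp53(+/-)* water (7.22 ± 0.176) to *Trp53(+/-)* AAI kidneys (7.61 ± 0.223), by 0.40. Batch and AAI cannot be told apart in either step, and neither was called with a batch term under any of the 5 assignments. For *Pvalb* the order rose from *Trp53(-/-)* AAI (5.86 ± 0.355) through *Trp53(+/+)* AAI (6.17 ± 0.313) and *Trp53(+/-)* AAI to the controls, the highest of which were *Trp53(+/+)* (8.27 ± 0.332). For *Umod* it rose from *Trp53(+/+)* water (11.97 ± 0.0685) to *Trp53(-/-)* AAI (12.73 ± 0.231), with all AAI groups above all control groups. *Scnn1b* and *Scnn1g* had the same division, from *Trp53(+/+)* water at the bottom (6.95 ± 0.116 and 7.94 ± 0.159) to *Trp53(-/-)* AAI at the top (7.71 ± 0.255 and 8.73 ± 0.141). In *Slc12a1*, *Kcnj1* and *Slc12a3* the AAI groups stood at both ends of the order or among the controls.

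Other genes of the same segments came from lists that do not contain the 10 genes. Their counts stand beside the share of all genes that rose and fell, which was 15.2% and 12% in *Trp53(+/+)*, 3.53% and 3.81% in *Trp53(+/-)*, and 15.5% and 10.9% in *Trp53(-/-)* kidneys. Of 20 measured genes of the thick ascending limb, 1 rose and 6 fell in *Trp53(+/+)*, 0 and 2 in *Trp53(+/-)*, and 3 and 2 in *Trp53(-/-)* kidneys, the last being near the share of all genes. *Egf*, the precursor of epidermal growth factor made in the distal tubule, had log2 changes of -2.84, -1.38 and -2.14 (adjusted p = 3.03e-08, 0.00575 and 4.71e-06), next to -2.10, -0.97 and -1.95 of *Pvalb*. *Cldn16*, a claudin of the junctions that pass magnesium and calcium, rose by 0.86 with both copies of *Trp53* (adjusted p = 0.000693) and by 1.11 with none (adjusted p = 2.83e-05), and had 0.36 with 1 (adjusted p = 0.395). Its partner *Cldn19* rose by 0.67 in *Trp53(-/-)* kidneys (adjusted p = 0.00146) and had 0.41 and 0.28 in *Trp53(+/+)* and *Trp53(+/-)* (adjusted p = 0.0539 and 0.451), and no difference of its effect between genotypes was called (adjusted p of 0.538 or above). *Cldn10*, a claudin of the thick limb that is also made in the proximal tubule, had changes of -1.03, -0.76 and -0.66 (adjusted p = 0.00744, 0.132 and 0.1).

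Of 20 genes of the distal convoluted tubule, 5 rose and 3 fell in *Trp53(+/+)* (15.2% and 12% of all genes), 1 and 1 in *Trp53(+/-)* (3.53% and 3.81%), and 3 and 2 in *Trp53(-/-)* kidneys (15.5% and 10.9%), which is near the share of all genes in (+/-) and (-/-) kidneys. *Trpv5*, the apical calcium channel, rose by 1.04 in *Trp53(+/+)* (adjusted p = 2.52e-05) and by 0.88 in *Trp53(-/-)* kidneys (adjusted p = 0.000244) and had 0.43 in *Trp53(+/-)* (adjusted p = 0.175). *Stk39*, the kinase SPAK that activates both salt cotransporters, rose by 0.76, 0.39 and 0.91 (adjusted p = 4.34e-06, 0.036 and 2.11e-07). *Pth1r*, the receptor of parathyroid hormone, fell by 1.01, 0.46 and 0.96 (adjusted p = 1.66e-06, 0.048 and 3.62e-06), and it too is made in the proximal tubule. *Abca13*, a transporter of the ABC family, had changes of -0.95, -0.38 and -0.45 (adjusted p = 0.000109, 0.293 and 0.0631).

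Of a list of genes around ENaC and aldosterone, not all of which regulate the channel, 17 were measured. Of these, 4 rose and 2 fell in *Trp53(+/+)* (15.2% and 12% of all genes), 1 and 1 in *Trp53(+/-)* (3.53% and 3.81%), and 2 and 2 in *Trp53(-/-)* kidneys (15.5% and 10.9%), which is again near the share of all genes in the last. *Prss8*, the protease prostasin that cleaves and activates the channel, fell by 1.35, 0.68 and 1.63 (adjusted p = 1.04e-08, 0.0026 and 2.65e-10). *Prss23*, another serine protease, rose by 1.60, 0.61 and 1.66 (adjusted p = 1.52e-11, 0.00142 and 8.69e-12), and its effect was smaller in *Trp53(+/-)* than in *Trp53(+/+)* kidneys by 0.99 (difference of -0.99, adjusted p = 0.00289). Since the AAI and water groups of *Trp53(+/-)* mice were in different cDNA batches, batch and genotype cannot be told apart in this difference of *Prss23*. *Per1*, a clock gene, had 0.62, 0.16 and 0.37 (adjusted p = 0.0124, 0.919 and 0.155), and *Usp2*, a deubiquitinase, -0.46, -0.49 and -0.52 (adjusted p = 0.0348, 0.0624 and 0.0159). Of 12 genes of the principal cells, 1 rose and 1 fell, 0 and 0, and 3 and 1 in the order (+/+), (+/-) and (-/-), beside the same shares of all genes. *Aqp2*, the vasopressin-regulated water channel, rose by 1.23 in *Trp53(-/-)* kidneys (adjusted p = 0.000224) and had 0.43 and 0.12 in the others (adjusted p = 0.217 and 0.984), while *St6gal1*, a sialyltransferase, had 0.64, 0.28 and 0.82 (adjusted p = 0.000804, 0.348 and 3.36e-05). *Npnt*, which encodes the matrix protein nephronectin, had 0.20, 0.04 and 0.49 (adjusted p = 0.294, 0.997 and 0.00475), and *Ldhb*, a lactate dehydrogenase subunit, -0.38, -0.12 and -0.33 (adjusted p = 0.000897, 0.646 and 0.0037). Of 13 genes of intercalated cells, 4 rose and 2 fell, 0 and 0, and 6 and 1, so that 7 of 13 were called in *Trp53(-/-)* kidneys, where 26.4% of all genes were. *Dmrt2*, a transcription factor, rose by 0.74 and 0.77 in *Trp53(+/+)* and *Trp53(-/-)* kidneys (adjusted p = 0.00022 and 0.000131), and *Aqp6*, an aquaporin of these cells, by 0.75 in *Trp53(-/-)* (adjusted p = 0.00271). Among the others *Slc26a4*, the chloride and bicarbonate exchanger pendrin, fell by 0.60 in *Trp53(-/-)* kidneys (adjusted p = 0.0081), and *Slc4a9*, a basolateral transporter, by 0.52 in *Trp53(+/+)* (adjusted p = 0.00795).

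The distal lists contrast with the proximal tubule, whose markers moved with AAI in one direction. Of 19 measured proximal tubule markers 19, 16 and 19 fell in (+/+), (+/-) and (-/-) kidneys, with median log2 changes of -2.45, -1.13 and -2.54. The medians of the distal lists lay between -0.09 and 0.28. The summed level of the proximal markers was 15.23 to 15.68 on the log2 scale in *Trp53(+/+)* controls and 13.21 to 14.18 with AAI, 15.23 to 15.38 and 14.11 to 14.70 in *Trp53(+/-)*, and 15.19 to 15.39 and 13.20 to 13.50 in *Trp53(-/-)* kidneys. That of the thick limb list was 13.76 to 13.88 and 13.48 to 13.85 in *Trp53(+/+)*, 13.72 to 13.91 and 13.47 to 13.83 in *Trp53(+/-)*, and 13.67 to 13.79 and 13.42 to 13.91 in *Trp53(-/-)* kidneys. The markers of injury and of other cells that passed the test were all higher with AAI. Of 11 markers of tubular injury, 10 rose in each genotype, of 11 fibroblast markers 11, 8 and 11, of 9 endothelial markers 9, 1 and 9, of 14 macrophage and immune markers 8, 2 and 9, and of 6 podocyte markers 5, 0 and 2. The part of this shift in the tissue in the changes of *Pvalb*, *Umod*, *Scnn1b* and *Scnn1g* was not tested.

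**Figure D4:**
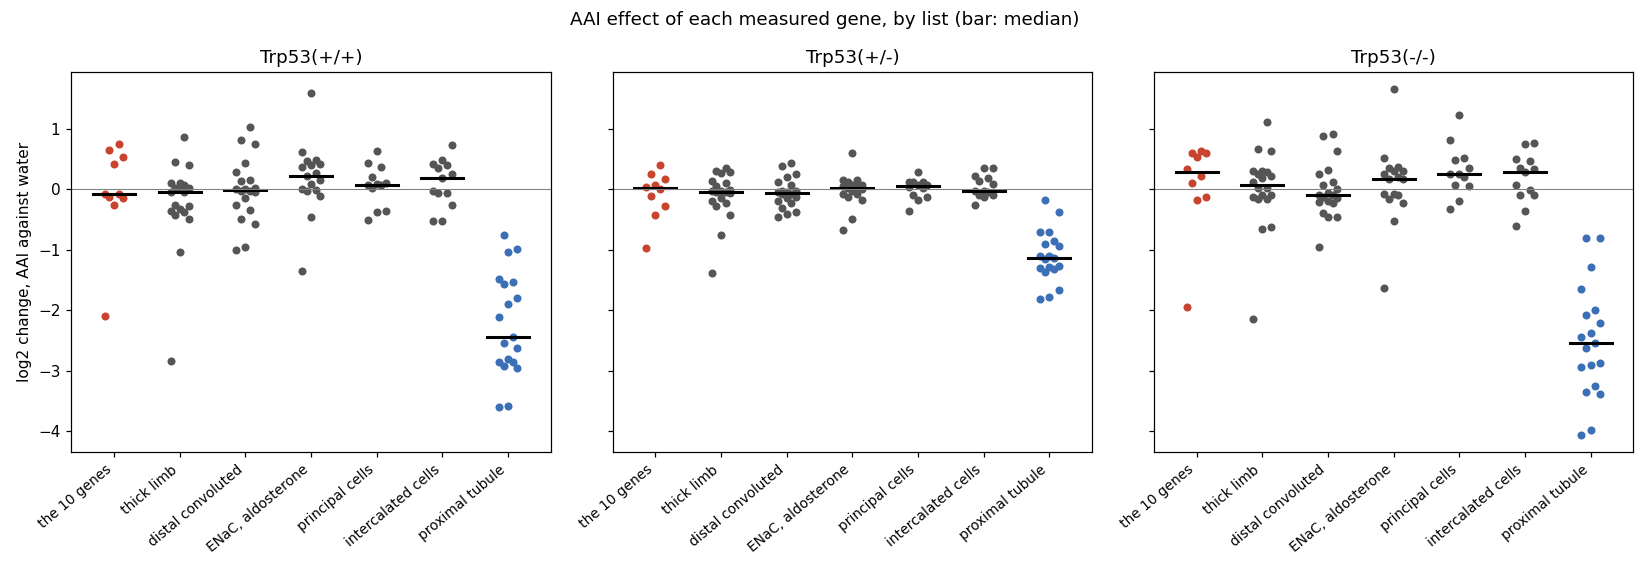
Log2 change with AAI (y axis) of every measured gene of the 10 and of 6 lists (x axis), one panel per genotype, with the median as a bar. In *Trp53(+/+)* kidneys the medians of the distal lists lie at -0.04 to 0.23 and that of the proximal tubule at -2.45.

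The genes whose pattern over the 30 kidneys was most like that of a member are given with Pearson's r over all kidneys and, after it, over deviations from group means, as a description. For *Slc12a1* they were *Sim2* (0.868, 0.897), *Ppp1r1a* (0.834, 0.876) and *Gpx6* (0.83, 0.863), and for *Kcnj1* *Ppp1r1a* (0.866, 0.895), *Ptger3* (0.824, 0.847) and *Egfl6* (0.815, 0.809). *Ppp1r1a*, a phosphatase inhibitor, and *Ptger3*, a prostaglandin receptor, are on the thick limb list. For *Umod* they were *Bst1* (0.942, 0.845), *Epcam* (0.941, 0.774), which encodes an adhesion protein of epithelia, and *Mal2* (0.939, 0.768). Those of *Slc12a3* were *Olfr669* (0.702, 0.715), *Slc8a1* (0.698, 0.798), the basolateral sodium and calcium exchanger of the distal tubule, and *Tmem52b* (0.683, 0.803), and those of *Calb1* were *Pgam2* (0.756, 0.787), *H2al1n* (0.733, 0.731) and *S100g* (0.718, 0.57), the gene of the smaller calbindin. For these 5 members the r within groups was 0.57 or above.

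The nearest genes of *Pvalb* were *Tst* (0.939, 0.475), *Mmut* (0.931, 0.416) and *Hykk* (0.927, 0.294), all genes of metabolic enzymes. Their r was lower within groups than over all kidneys, as was that of the nearest genes of *Umod*, *Scnn1a*, *Scnn1b* and *Scnn1g*. With AAI, *Tst* had log2 changes of -1.74, -0.93 and -1.69 (adjusted p = 1.03e-10, 0.00012 and 1.91e-10), beside -2.10, -0.97 and -1.95 of *Pvalb*. As *Tst* was picked by its r over these same kidneys, AAI and control alike, this likeness of the changes follows from the choice. For *Scnn1b* the nearest were *Sbsn* (0.897, 0.687), *Dstn* (0.89, 0.524) and *Fhl2* (0.88, 0.41), for *Scnn1g* *Thbs1* (0.92, 0.632), *Gask1b* (0.916, 0.654) and *Map4* (0.909, 0.579), and for *Scnn1a* *Wbp1l* (0.896, 0.848), *Fam117b* (0.885, 0.779) and *Ppl* (0.872, 0.777). *Scnn1b* and *Scnn1g* were thus nearest to different genes, with an r of 0.79 between them over all kidneys. The deviations of these 2 genes had an r of 0.30 (rho 0.25, permutation p = 0.157 and 0.215, adjusted 0.353 and 0.443), and 0.31 without the 2 farthest kidneys. Their r was 0.66 in AAI kidneys and -0.19 in controls, and 0.73 in batch 1 and 0.04 in batch 2. For *Trpm6* the nearest were *Abca8a* (0.713, 0.762), *Cwh43* (0.655, 0.609) and *Slc27a1* (0.649, 0.599).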

How the data were processed

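For each of the 30 arrays, the deposited table gives log2 signals of 22206 transcript clusters, which the authors derived by RMA (Robust Multi-array Average) with Transcriptome Analysis Console software (version not given in the sources used here), so that background correction and normalization between arrays came before deposit. Values ran from 1.92 to 14.04.

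Symbols came from the platform table through Entrez numbers and were found for 19572 clusters. Where clusters shared a symbol the brightest was kept, which left 22139, all called genes here. They were fitted with limma 3.58.1 in R 4.3.3, with 1 mean per group, 24 residual degrees of freedom and Benjamini-Hochberg adjustment within each contrast (two-sided). Each array is 1 mouse, and the number of arrays limits the precision. The 10 genes and the 11 gene lists were chosen with earlier results of these data known. Named genes are the 10, up to 4 genes per list with the largest effect among those called, and the 3 genes most correlated with each of the 10; those of the lists of proximal tubule, injury and other cell types are given as counts only. Alternatives were fewer arrays in the fit, a filter on dim clusters, all clusters, other scalings, priors, weights and thresholds, a plain test at the p and fold thresholds of the methods (without their limit on the false discovery rate and their batch correction), a replicate block, a batch term, other controls and each array left out. Replicate numbers do not pair the arrays (median correlation of deviations -0.00597 over 75 pairs). The sizes of the cDNA batches are given in the study's methods, and the batch of each group was read from the batch colours of its heat map. The targeted gene was not examined here.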

Additional observations from a re-analysis of the deposited data

Results flagged for a closer look

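In 2 of 60 sets of 5 kidneys (10 genes in 6 groups) a single kidney stood apart from the others by Dixon's test at its 95% critical value of 0.71, which chance gives in about 1 of 20 sets. *Slc12a1* in the *Trp53(+/-)* control replicate 4 was at 10.89, where the other controls were between 11.43 and 11.61. *Trpm6* in the *Trp53(-/-)* control replicate 1 was at 5.84, where the others were between 6.30 and 6.47. None of 30 differences of the AAI effect between genotypes passed the test.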

How the results depend on the processing

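The calls in *Trp53(+/-)* kidneys depended most on the processing. Of the 10 genes 2 were called there, and 1, *Pvalb*, with only the compared arrays in the fit, with arrays centred on their medians or at an adjusted p under 0.01. None (0) was called with the batch term under any of the 5 assignments, by a plain test at the thresholds of the methods (unadjusted p under 0.05 and 2-fold, with no limit on the false discovery rate and no batch correction) or with a 2-fold minimum. With wild-type controls in place of their own 5 were called, namely *Umod*, *Pvalb*, *Calb1*, *Scnn1b* and *Scnn1g*, but genotype and AAI cannot be told apart in that setting. The plain test and the 2-fold minimum left 1 gene, *Pvalb*, in *Trp53(+/+)* (4 before) and in *Trp53(-/-)* kidneys (5 before). The plain test also passed 1 gene, *Pvalb*, for the difference of the AAI effect between *Trp53(+/-)* and *Trp53(+/+)* kidneys (0 before). Between *Trp53(-/-)* and *Trp53(+/-)* AAI kidneys, 3 genes became 0 with the batch term under 4 assignments and 1 under the other, 0 by the plain test or with 2-fold, and 1 at an adjusted p under 0.01. With replicate 4 of the wild-type AAI kidneys taken as the batch 2 array, *Scnn1a* in this contrast turned from 0.68 to -0.25 (adjusted p = 0.885). The cause of these changes was not tested.

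With each kidney left out in turn, 4 to 5 genes were called in *Trp53(+/+)*, 1 to 2 in *Trp53(+/-)* and 5 to 5 in *Trp53(-/-)* kidneys, and 2 to 4 between *Trp53(-/-)* and *Trp53(+/-)* AAI kidneys. The count was 0 to 1 for the difference of effects of *Trp53(+/-)* from *Trp53(+/+)* and from *Trp53(-/-)*, and 0 to 0 for the other contrasts. The effect of *Pvalb* differed between *Trp53(+/-)* and *Trp53(+/+)* by 1.25 without wild-type control replicate 2 (adjusted p = 0.0457) and by 1.31 without *Trp53(+/-)* AAI replicate 4 (adjusted p = 0.0207). Its difference of -0.98 between *Trp53(-/-)* and *Trp53(+/-)* became -1.17 without that kidney (adjusted p = 0.0373) and -1.13 without *Trp53(-/-)* AAI replicate 5 (adjusted p = 0.0486). With the batch term, both differences of *Pvalb* were not called under any of the 5 assignments. Their values were then 0.65 to 1.61 against *Trp53(+/+)* and -1.39 to -0.59 for *Trp53(-/-)* minus *Trp53(+/-)*. Between the AAI kidneys of these genotypes, *Scnn1g* had 0.33 (adjusted p = 0.0676) without *Trp53(+/-)* replicate 1 and 0.36 (adjusted p = 0.0512) without *Trp53(-/-)* replicate 3, and *Scnn1a* had 0.57 (adjusted p = 0.0556) without *Trp53(+/-)* replicate 4 and 0.53 (adjusted p = 0.0641) without *Trp53(-/-)* replicate 4. *Trpm6* passed there without *Trp53(-/-)* replicate 1, at 0.57 (adjusted p = 0.0406), and *Umod* without replicate 5, at 0.36 (adjusted p = 0.0166). Of the 30 tests of pairs 0 to 6 passed, and 6 did so without *Trp53(+/-)* AAI replicate 3.

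With replicate number as a block the counts were 4, 2 and 5 in the 3 genotypes and 3 between *Trp53(-/-)* and *Trp53(+/-)* AAI kidneys, so that the replicate block changed no count. *Umod* in *Trp53(+/-)* kidneys passed after quantile normalization (0.35, adjusted p = 0.0286). Over all settings, 150 single values gave 6365 results with the direction and side of the threshold of the main fit, 64 that lost a call, 30 that gained one and 1 that reversed. Changes of the size of those of *Slc12a1* lie within the spread of 5 AAI kidneys and could not be resolved with this number of arrays.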
